A study of Mus musculus with 2 samples.

Results

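The nuclear-encoded subunits of the oxidative phosphorylation complexes were examined in single-cell transcriptomes of the mouse choroid and retinal pigment epithelium (RPE). Members were chosen by gene symbol, as the names that begin with Ndufa, Ndufb, Ndufc, Ndufs, Ndufv, Uqcr, Cox4i, Cox5, Cox6, Cox7, Cox8 or Atp5. Of 90 such names, 8 Ndufaf assembly factors, Ndufa4l2 and Ndufb1-ps were dropped, which left 80 members of 32285 genes in the tables. Ndufb1-ps was taken as a pseudogene by its symbol, while GENCODE M21 lists it as a noncoding RNA. It had 53322 UMIs over all classes, which no share given here includes. The 80 members comprised 36 genes of complex I, 8 of complex III, 19 of complex IV and 17 of complex V. Ndufa4 was counted with complex IV, of which its product is a subunit. Of the 80, 77 lie on autosomes and 3 on the X chromosome.

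The respiratory chain passes electrons from NADH and succinate to oxygen through complexes I to IV of the inner mitochondrial membrane, and complex V, the ATP synthase, makes ATP from the proton gradient that results. Complexes I, III, IV and V each combine subunits from nuclear genes, described here, with a few from mitochondrial DNA. Several subunits of complex IV, cytochrome c oxidase, exist as isoforms that are known to differ between tissues. The RPE is an epithelium that nourishes the photoreceptors and is known to rely strongly on mitochondrial respiration.

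The study had 1 group, wild-type mice of the ICR strain at 8 weeks of age, and no treatment. ICR is an albino strain, so its RPE cells and melanocytes lack melanin. There were 2 droplet libraries made with a 3′ kit, each from the pooled choroid and RPE tissue of 1 male and 1 female. The libraries served as replicates (n = 2), so every SD given here is that between 2 pools. They held 91741168 and 149570817 unique molecular identifiers (UMIs, one per captured transcript).

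Barcodes that reached 1000 UMIs and 500 genes, with mitochondrial UMIs not above 20%, numbered 8497 and 13401, and 31 barcode sequences occurred in both libraries. A barcode was put in the class whose gene pair had the most UMIs, with a minimum of 5. The pairs were Dcn and Col1a2 (fibroblast), Dct and Pmel (melanocyte), Rpe65 and Rgr (RPE), Cdh5 and Pecam1 (endothelial), Rgs5 and Myh11 (mural, the pericytes and smooth muscle of vessels), and C1qa and Csf1r (macrophage). A class was found for 20029 of 21898 barcodes. The fibroblast class was the largest, with 4009 and 6157 barcodes in the first and second library, and the RPE class held 303 and 888. In each class all 5 further markers of that cell type had UMIs in both libraries. Presence alone does not tell the classes apart, since the RPE marker Ttr had UMIs in all 6 classes. The RPE class was also the deepest, with a median of 26220 and 19078 UMIs per barcode against 6071.5 to 11464 in the other classes, and it carried the melanocyte-class gene Dct at 1533 and 1421 CPM (counts per 1000000 UMIs of the class).

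Transcripts of the members took the largest share of UMIs in the RPE class and the next largest in the melanocyte class. In the RPE class the share was 4.64% in the first library and 4.53% in the second (4.58% ± 0.079, SD, n = 2). In the melanocyte class it was 3.88% and 3.27% (3.57% ± 0.44, SD, n = 2). These 2 classes did not overlap with each other or with any other class in either library.

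The mural class followed with 2.17% and 1.74% (1.96% ± 0.30, SD, n = 2). The fibroblast class had 1.68% and 1.42% (1.55% ± 0.18, SD, n = 2). The macrophage class had 1.57% and 1.35% (1.46% ± 0.16, SD, n = 2), and the endothelial class 1.58% and 1.26% (1.42% ± 0.23, SD, n = 2). These last 3 ranges overlapped, but within each library fibroblasts were above the other two, and the order of macrophages and the endothelial class differed between libraries. Set against the fibroblasts of the same library, the share was 2.77 and 3.20 times as large in the RPE class, 2.32 and 2.31 times in melanocytes and 1.29 and 1.23 times in mural barcodes. It was 0.936 and 0.952 times in macrophages and 0.944 and 0.888 times in the endothelial class. The shares were not tested.

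**Figure D1:**
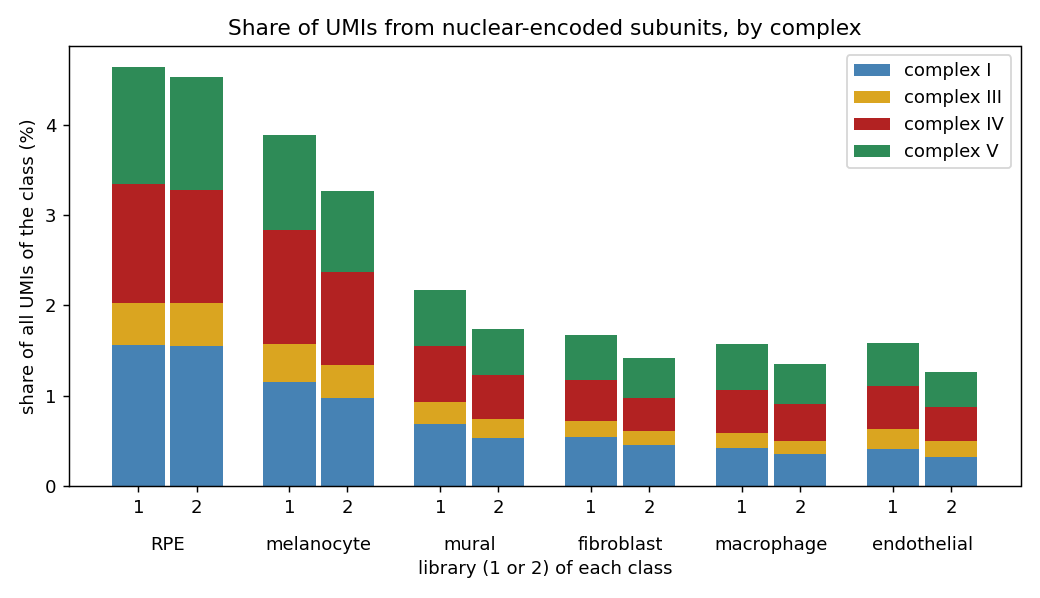
Share of all UMIs (%, y axis) from members of complexes I, III, IV and V, stacked, for each class and library (x axis). The RPE bars reach 4.64% and 4.53% and the endothelial bars 1.58% and 1.26%, and the first library is the higher of the pair in all 6 classes.

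The shares were measured beside other properties of the libraries that differed between classes. All 6 classes had a higher share in the first library than in the second. Ribosomal protein genes (84 genes), the other large set of housekeeping transcripts, took 5.57% and 5.59% of UMIs in the RPE class and 8.58% to 17.9% in the others. With their UMIs left out of the total, a choice made after the values were seen, the members' share was 4.85% in the RPE class, 4.06% in melanocytes and 1.75% in fibroblasts. Among barcodes of 5000 to 10000 UMIs, where depths are matched, it was 5.52% and 4.96% in the RPE class (32 and 127 barcodes), 3.79% and 3.30% in melanocytes and 1.67% and 1.38% in fibroblasts.

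Barcode by barcode, the RPE class lay largely apart from the fibroblasts. In the RPE class the middle 80% of barcodes, from the 10th to the 90th percentile, lay between 3.25% and 6.22% in the first library and between 3.29% and 6.08% in the second. In fibroblasts these limits were 1.15% and 2.21%, and 1.00% and 1.81%. Melanocytes ranged from 2.81% to 4.98% and from 2.18% to 4.37%, so they overlapped with the RPE class and lay largely above the fibroblasts. Mural barcodes, from 1.36% to 3.01% and from 1.09% to 2.38%, reached into the melanocyte range in both libraries.

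**Figure D2:**
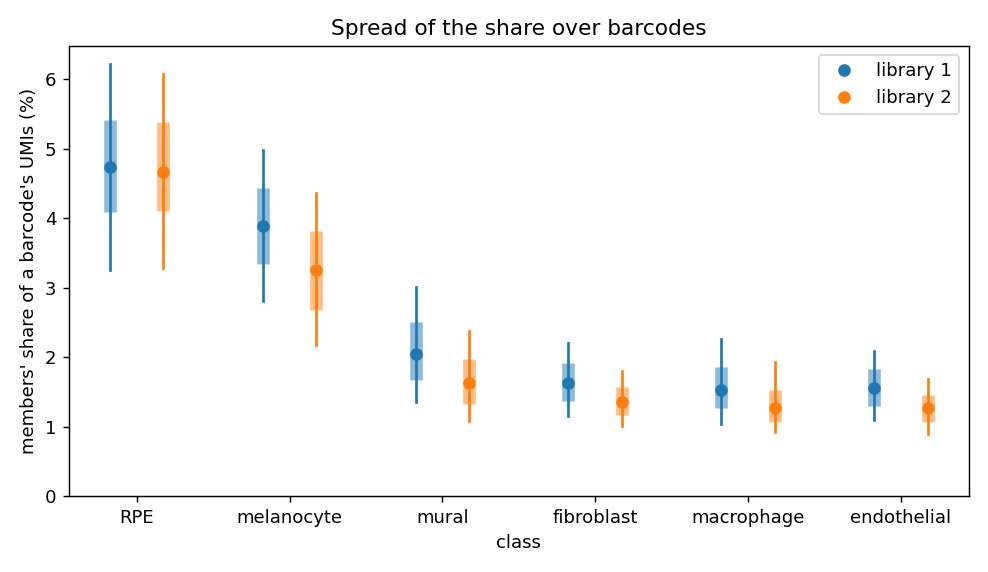
Members' share of each barcode's UMIs (%, y axis) by class (x axis) and library (colour). Points are medians, thick bars run from the 25th to the 75th percentile and thin lines from the 10th to the 90th, and the RPE lines start at 3.25% and 3.29%, above the end of the fibroblast lines at 2.21% and 1.81%.

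The proportions of the complexes differed between classes. Complex I supplied 34.0% ± 0.53 (SD, n = 2) of member UMIs in the RPE class and 26.1% ± 0.21 in the endothelial class, the highest and the lowest value. Complex III supplied 10.3% ± 0.20 in the RPE class and 13.7% ± 0.51 in the endothelial class, again the extremes but in the opposite order. Complex IV lay between 26.8% in fibroblasts and 31.8% in melanocytes. Complex V lay between 27.4% in melanocytes and 32.3% in macrophages. With Ndufa4 counted by its name under complex I, the share of all UMIs from complex I was 1.77% rather than 1.56% in the RPE class.

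Each gene was then tested for a difference between a class and the mean of the other 5 classes, with UMIs summed per library and class and edgeR's quasi-likelihood test over 15352 genes. Of the members, 77 passed the filter on low counts. The other 3 were Cox6a2, Cox7b2 and Cox8c, isoforms known from muscle or testis, with 56, 11 and 12 UMIs over all classes. A gene was called at an adjusted p below 0.05 (Benjamini-Hochberg over all genes tested).

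In the RPE class 73 of 77 members were higher and none was lower, while 37.8% of all genes tested were called higher and 36% lower. The members' median log2 fold change was 1.45 and that of all genes -0.06. Cox4i2, Cox5a and Cox7a2l were among the 4 without a call.

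In melanocytes 68 members were higher, against 29.1% of all genes, with a median of 0.66, and 2, among them Cox4i2, were lower, against 24.6%. In the endothelial class none was higher, where 28.5% of all genes were. There 73 were lower, against 31.3%, with a median of -0.91, and the 4 without a call were Ndufa8, Uqcrq, Cox5a and Cox7a2l. In fibroblasts 68 were lower, against 24.9%, with a median of -0.61, and 3, among them Cox4i2 and Cox6b2, were higher, against 30.5%.

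The mural and macrophage classes were less uniform. In mural barcodes 50 members were lower, against 25.2% of all genes, with a median of -0.37, and 4, among them Cox4i2, Cox7a1 and Atp5d, were higher, against 25.5%. In macrophages 39 were lower, against 30.4%, and 5 higher, against 29.6%, with a median of -0.31 beside -0.17 for all genes. The higher 5 were Atp5g2, Cox7a2l, Ndufa6, Atp5e and Cox5a.

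With a further limit of 1 on the size of the log2 fold change, the members' counts exceeded the background in the RPE and endothelial classes. In the RPE class 61 members were higher and none lower, against 26.1% and 24.6% of all genes. In the endothelial class none was higher and 31 were lower, against 15.6% and 20.9%. The other classes had counts below the background: 8 higher and 1 lower in melanocytes, against 14.9% and 11.3%, 2 and 4 in fibroblasts, against 18.4% and 8.56%, 2 and 6 in mural barcodes, against 14.7% and 11.1%, and 0 and 4 in macrophages, against 19.3% and 20.9%. Thus most calls outside the RPE and endothelial classes were of a small size.

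The library was a term of the model, because all classes come from the same 2 libraries. Without it the counts fell to 25 members lower in fibroblasts, 45 higher in melanocytes, 11 lower in mural barcodes and 12 lower in macrophages, and to 71 higher in the RPE class and 57 lower in the endothelial class. Without scaling beyond the total, 8 members were higher and 36 lower in mural barcodes, and 1 was higher and 67 lower in macrophages.

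**Figure D3:**
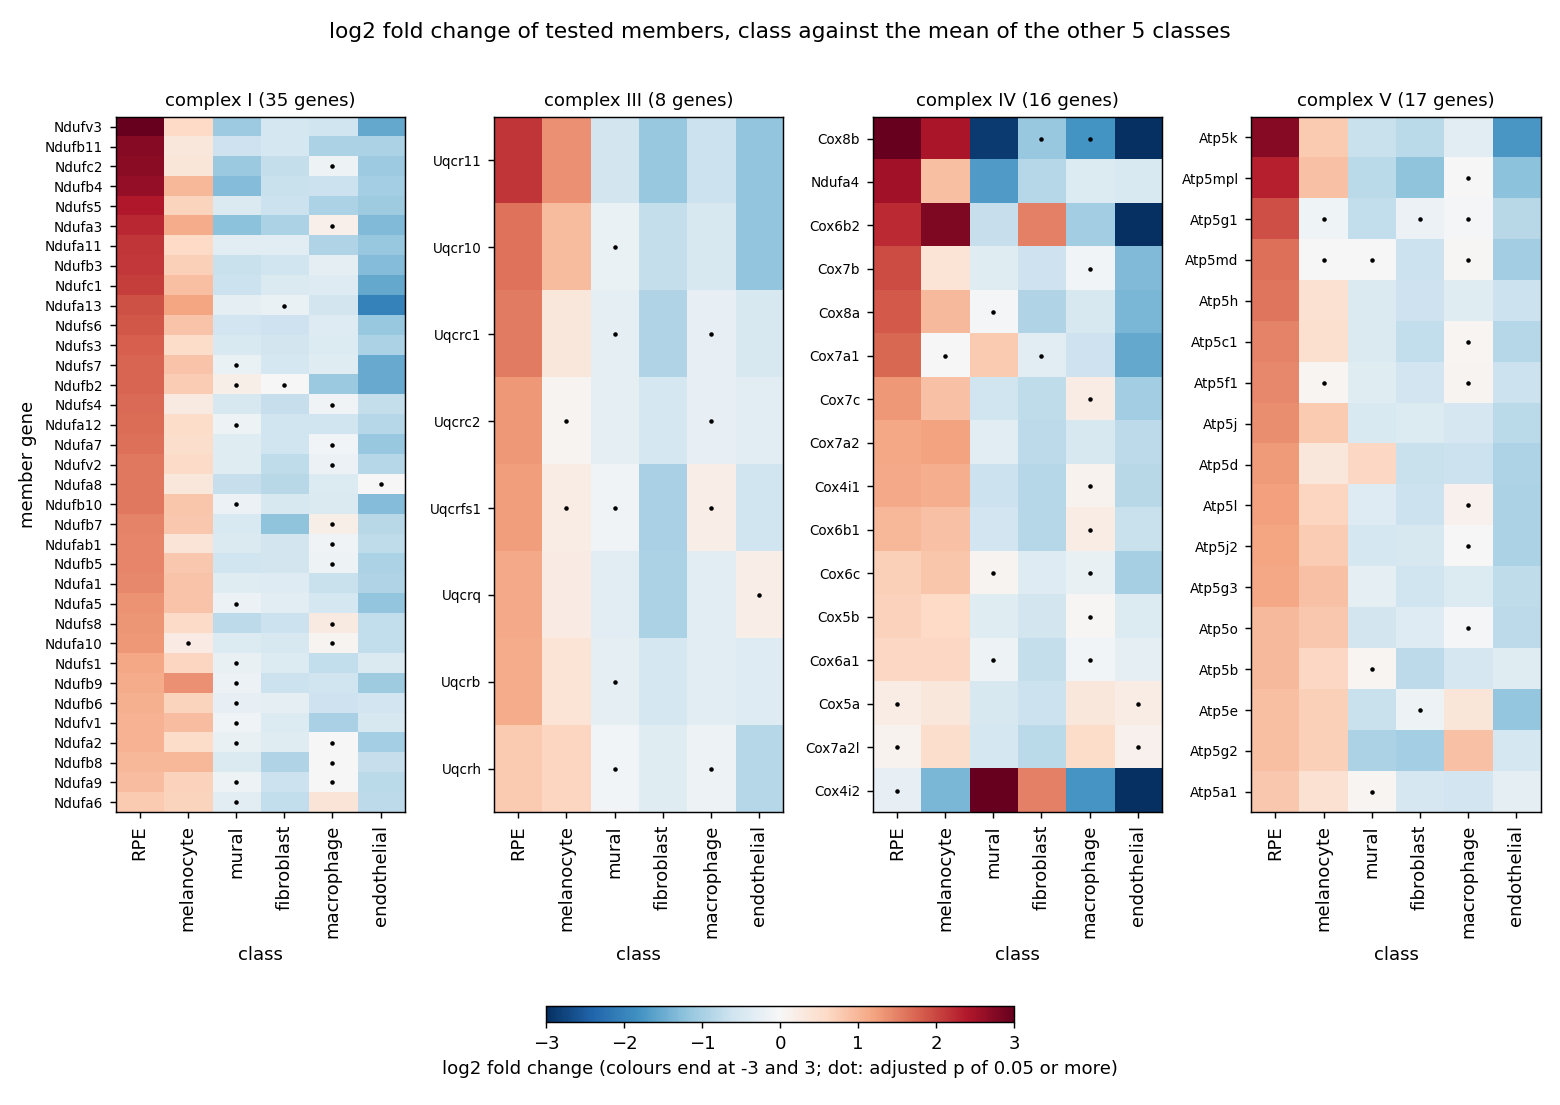
log2 fold change of 76 tested members (rows, grouped by complex and ordered by the RPE value) in each class against the mean of the other 5 (columns), with a dot where the adjusted p was 0.05 or more and colours that end at -3 and 3. The RPE column is higher in 73 rows and the endothelial column lower in 72, while Cox4i2 runs the other way in the mural column.

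Compared as a pair, the RPE class was higher than melanocytes for 56 members, against 31.5% of all genes, and lower for 1, against 30.7%. That 1 was Cox7a2l, whose product helps to join complexes III and IV into supercomplexes. By mean unscaled level the RPE class was highest for 54 members, melanocytes for 21 and mural barcodes for 2, among them Cox4i2. The RPE and melanocyte classes were the top 2 in both libraries for 70 of the 77. Between fibroblasts and the endothelial class 30 members were higher in fibroblasts, against 31.2% of all genes, and 8 in the endothelial class, against 25.8%.

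Complex I takes electrons from NADH and has more members than any other complex here. In the RPE class 35 of its 36 genes were higher, with a median log2 fold change of 1.58. Ndufv3, an accessory subunit of the NADH-binding arm, had the largest change. It was counted at 763 and 685 CPM in the RPE class, at 226 and 189 in melanocytes and at 54.2 to 110 in the other 4 classes. The RPE values lay above all others, and the log2 fold change was 3.14 ± 0.08 (SE, adjusted p = 5.21e-12 in edgeR's quasi-likelihood test).

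Ndufa13 had the most UMIs in complex I. It stood at 1014 and 991 CPM in the RPE class, at 868 and 779 in melanocytes and at 130 and 120 in the endothelial class, the lowest. Its endothelial log2 fold change was -2.04 ± 0.12 (adjusted p = 9.99e-09, edgeR). Ndufb4, an accessory subunit of the membrane arm, was at 823 and 821 CPM in the RPE class and at 121 and 88.8 in mural barcodes, where its log2 fold change was -1.30 ± 0.13. Ndufb9, of the same arm, was among the members highest in melanocytes, with 901 and 726 CPM beside 567 and 557 in the RPE class. Its melanocyte log2 fold change was 1.37 ± 0.10 (adjusted p = 1.11e-07, edgeR).

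Across the complexes, 26 members share exonic bases with an opposite-strand gene of the tables and none with a same-strand gene (GRCm38, GENCODE M21). The sources used here do not say whether strand entered the counting, so the levels of these 26 are uncertain. They include Ndufa13, Ndufa11, Atp5d, Cox4i1, Cox5a and Cox6a2, which are named in this text.

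Complex III passes electrons from quinol to cytochrome c. All 8 of its genes were higher in the RPE class, with log2 fold changes of 0.79 to 2.14, and all 8 were lower in fibroblasts. The largest in the RPE class was Uqcr11, the smallest subunit of the complex, at 1058 and 1046 CPM beside 915 and 766 in melanocytes. Fibroblasts held it at 184 and 181, with a log2 fold change of -1.13 ± 0.11 (adjusted p = 1.52e-06, edgeR). Uqcrh, the hinge subunit, had the most UMIs of complex III. It was at 767 and 766 CPM in the RPE class and at 950 and 817 in melanocytes, which were above the RPE class in both libraries on this unscaled level. Scaled log2 fold changes, which also allow for how the classes differ in composition, had the reverse order, 0.79 ± 0.10 and 0.65 ± 0.10.

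Complex V makes ATP. All 17 of its genes were higher in the RPE class, with a median log2 fold change of 1.29, and all 17 lower in the endothelial class. Atp5k, the e subunit of the membrane part, changed most. Its counts were 1120 and 972 CPM in the RPE class, 503 and 357 in melanocytes and 119 and 76.9 in the endothelial class. The RPE log2 fold change was 2.74 ± 0.09 (adjusted p = 4.06e-11, edgeR). Atp5mpl, a small proteolipid subunit, was low in fibroblasts, at 136 and 82.7 CPM beside 824 and 611 in the RPE class, with a log2 fold change of -1.20 ± 0.12 (adjusted p = 1.74e-06, edgeR).

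Atp5e, the epsilon subunit, had the most UMIs of complex V, with 983 and 952 CPM in the RPE class and 1182 and 985 in melanocytes. The catalytic beta subunit gene Atp5b was at 740 and 702 in melanocytes and at 685 and 723 in the RPE class, so the classes overlapped. Atp5d, the delta subunit, was the 1 complex V gene called higher in mural barcodes. It was counted there at 611 and 496 CPM, with a log2 fold change of 0.63 ± 0.11 (adjusted p = 0.000338, edgeR). Atp5d shares exonic bases with Cbarp on the opposite strand. The mean level of Cbarp was 32.9 CPM in mural barcodes and 2.73 to 11.6 in the other classes, and its part in the Atp5d counts was not tested.

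Subunit c, which forms the rotor ring, is made from 3 genes, Atp5g1, Atp5g2 and Atp5g3, that encode the same mature protein. The classes differed in which of them supplied the transcripts. Atp5g1 gave 44.8% and 48.4% of subunit c UMIs in the RPE class and 42.9% and 42.2% in fibroblasts, but 21.9% and 24.7% in melanocytes. Atp5g2 gave 51.3% and 51.2% in macrophages, 40.6% and 40.0% in melanocytes and 28.3% and 26.0% in the RPE class. Atp5g3 gave 37.1% and 37.5% in mural barcodes and 20.5% and 20.2% in macrophages. The differences between these classes exceeded those between libraries, except for Atp5g1 between the RPE class and fibroblasts.

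By level, Atp5g1 was at 826 and 881 CPM in the RPE class and at 330 and 315 in melanocytes. Its step from the RPE class to macrophages, the class next to it in fitted level, was 1.66 ± 0.14 on the log2 scale (SE, adjusted p = 3.52e-07, edgeR). For Atp5g2 the RPE class, macrophages and melanocytes did not differ beyond their error, with log2 steps of 0.02 ± 0.13 (adjusted p = 0.912, edgeR) and 0.13 ± 0.13 (adjusted p = 0.420, edgeR). Atp5g2 thus reached 454 and 395 CPM in macrophages, with a log2 fold change of 0.87 ± 0.10 against the mean of the others (adjusted p = 3.90e-06, edgeR), in a class where the median member was lower.

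Upstream sequences of 66 of the 80 members were found in RefSeq's promoter table for GRCm38.p6. In the 250 bases before the start, 10 of the 66 (15.2%) held the NRF1 motif (GCGCA, any base, then GCGC) on either strand, beside 3.86% of 27025 promoters of that length. NRF1 is a transcription factor known for binding upstream of respiratory chain genes. An ETS core, CCGGAAG, was in 15.2% and in 7.05%, the YY1 motif AANATGGC in 6.06% and 3.93%, and TATAAA in 10.6% and 13.0%. The NRF1 and ETS motifs contain CG dinucleotides. Of these the 250 bases held a median of 14 over the 66 members and 6 over all promoters. Whether this difference in composition accounts for the motif counts was not tested. These matches describe letters and do not show binding. The windows of 5 members named here follow, in the gene's sense, with the matched letters in capitals. They lie at chr5:108434430-108434459 (Atp5k), chr16:37654540-37654569 (Ndufb4), chr15:102671070-102671099 (Atp5g2), chr5:115349101-115349130 (Cox6a1) and chr17:56717692-56717721 (Ndufa11, an accessory subunit of the complex I membrane arm).
Atp5k: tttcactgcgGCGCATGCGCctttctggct
Ndufb4: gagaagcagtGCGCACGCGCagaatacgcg
Atp5g2: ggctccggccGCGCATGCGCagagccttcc
Cox6a1: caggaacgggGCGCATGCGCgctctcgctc
Ndufa11: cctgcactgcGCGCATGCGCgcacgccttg

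Complex IV reduces oxygen. Of its 16 tested genes 13 were higher in the RPE class and 14 in melanocytes. Cox8a, the ubiquitous form of the smallest subunit, had the most UMIs of any member, 5.71% of all member UMIs. It was counted at 3402 and 2714 CPM in the RPE class, at 2736 and 1902 in melanocytes and at 717 and 458 in the endothelial class. The RPE log2 fold change was 1.85 ± 0.09 (adjusted p = 9.33e-10, edgeR). Cox5a and Cox7a2l, without a call in the RPE class, were at 294 and 308 and at 155 and 158 CPM there. Both were highest in melanocytes on the unscaled level, with 453 and 359 for Cox5a and 262 and 240 for Cox7a2l. In macrophages the scaled log2 fold changes were as large as in melanocytes, 0.34 ± 0.11 in both for Cox5a, and 0.56 ± 0.10 and 0.54 ± 0.10 for Cox7a2l.

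Cox8b, the form of the same subunit known from heart, skeletal muscle and brown fat, was the member with the largest change. It was counted at 652 and 757 CPM in the RPE class, at 31.3 and 134 in melanocytes, at 9.56 and 5.43 in fibroblasts and at 0.551 to 6.94 in the other 3 classes. The RPE values lay above all others, and the log2 fold change was 6.83 ± 0.50 (adjusted p = 3.78e-05, edgeR). Against melanocytes alone it was 3.65 ± 0.79 (adjusted p = 0.00825, edgeR). As a fraction of Cox8a, Cox8b and Cox8c together it made up 16.1% (95% exact binomial interval 15.7 to 16.4) and 21.8% (21.5 to 22.1) in the RPE class. Such intervals cover counting error only, and the libraries differed by more. In the 57.1% and 52.3% of RPE barcodes whose own pair held at least 90% of the UMIs of all 6 pairs, the mean fraction was 14.5% instead of 18.9%.

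Defining markers of striated muscle were at or near 0 in the RPE class. Ckm, Acta1 and Myh4 had no UMI in either library there, and the summed level of 5 muscle markers was 2.68 and 2.61 CPM, within the 2.12 to 18.8 of the other classes.

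The Cox8b level of melanocytes differed between libraries together with RPE transcripts. Ttr, a thyroxine and retinol carrier gene abundant in the RPE class, was at 297 and 2847 CPM in melanocytes. In melanocyte barcodes with no UMI of Rpe65, Rgr, Rlbp1 or Ttr (750 and 504 barcodes), a set chosen after the values were seen, Cox8b was at 10.3 and 11.6 CPM. The members' share in these barcodes was 3.82% and 3.21%, as large as in all melanocytes. The main fit called Cox8b higher in melanocytes, with a log2 fold change of 2.45 ± 0.55 (adjusted p = 0.0116, edgeR). With free RNA subtracted, Cox8b had no call there (adjusted p = 0.193, edgeR). In all fibroblasts Cox8b was at 9.56 and 5.43 CPM and Ttr at 237 and 298, so the 2 genes changed in opposite directions between libraries. In fibroblasts without UMIs of these 4 genes Cox8b was at 0.437 and 2.77 CPM. The source of Cox8b UMIs outside the RPE class was not tested.

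Cox8a lies at chr19:7215153-7217616 and Cox8b at chr7:140898945-140900446 (GRCm38), both on the minus strand. The upstream bases of this pair are shown because Cox8a was abundant in all classes and Cox8b mainly in the RPE class. In capitals are the CG dinucleotides, the sites of DNA methylation, of which the 250 bases before the start hold 11 for Cox8a (chr19:7217617-7217866) and 1 for Cox8b (chr7:140900447-140900696). The median was 14 over the 66 members and 6 over all promoters of the table. Uqcr10, counted at 177 to 816 CPM over the classes, held 5, and Cox6b2 held 8. Whether the number of CG dinucleotides goes with the breadth of expression was not tested.
Cox8a: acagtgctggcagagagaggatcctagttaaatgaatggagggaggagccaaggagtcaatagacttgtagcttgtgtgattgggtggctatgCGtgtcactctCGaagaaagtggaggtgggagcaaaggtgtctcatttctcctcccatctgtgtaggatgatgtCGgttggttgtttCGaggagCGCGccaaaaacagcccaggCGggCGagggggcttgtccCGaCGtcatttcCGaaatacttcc
Cox8b: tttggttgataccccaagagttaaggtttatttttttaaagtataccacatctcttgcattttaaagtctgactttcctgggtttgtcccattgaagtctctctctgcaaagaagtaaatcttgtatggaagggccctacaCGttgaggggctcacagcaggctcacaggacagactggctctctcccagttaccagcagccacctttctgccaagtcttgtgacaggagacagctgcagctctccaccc

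Cox4i2, the isoform of subunit 4 known from lung and from conditions of low oxygen, was highest in the mural class. It was counted at 406 and 264 CPM in mural barcodes and at 48.1 and 34.4 in fibroblasts. The other 4 classes held 2.81 to 13.5, and neither range overlapped with that of the mural class. The mural log2 fold change was 5.05 ± 0.13 (adjusted p = 2.40e-11, edgeR), and the step from mural barcodes to fibroblasts was 2.95 ± 0.20 on the log2 scale (adjusted p = 3.31e-07, edgeR). Of Cox4i1 and Cox4i2 together it made up 42.8% (95% exact binomial interval 41.6 to 43.9) and 34.5% (33.5 to 35.5) in mural barcodes. In fibroblasts the fraction was 9.16% and 7.75%, and in the remaining classes 0.541% to 1.05%. Cox4i1, the ubiquitous form, was at 544 and 503 CPM in mural barcodes and at 1548 and 1387 in melanocytes.

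Ndufa4 showed the lowest level in the mural class. It was at 215 and 224 CPM there, at 317 to 482 in fibroblasts, macrophages and the endothelial class, at 1041 and 979 in melanocytes and at 2124 and 2047 in the RPE class. The log2 fold change was -1.69 ± 0.11 in mural barcodes (adjusted p = 3.73e-08, edgeR) and 2.53 ± 0.08 in the RPE class (adjusted p = 2.78e-11, edgeR). Its paralog Ndufa4l2 at chr10:127514967-127517154, no member by the rule and known as induced by hypoxia, was instead highest in the mural class. It was at 589 and 426 CPM in mural barcodes, at 66.4 and 44.7 in fibroblasts and at 1.55 to 10.5 elsewhere. Ndufa4l2 thus made up 73.3% and 65.5% of the pair's UMIs in mural barcodes, 15.8% and 12.2% in fibroblasts and at most 1.06% in any other class. The mural log2 fold change of Ndufa4l2 was 6.06 ± 0.21 (adjusted p = 3.89e-08, edgeR).

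The mural class was uneven for these genes. Barcodes with more Myh11 than Rgs5 UMIs, the genes of contractile smooth muscle and of pericytes, numbered 86 and 163. They held Ndufa4l2 at 105 and 59.1 CPM, where the other 1000 and 1517 barcodes held 645 and 478. For Ndufa4 the values were 564 and 517 against 174 and 183, so the order of the paralogs was reversed between these sets in both libraries. Cox4i2 was at 280 and 176 in the Myh11 set and at 421 and 277 in the other, a smaller difference. The members' share was 2.71% and 2.32% in the Myh11 set and 2.11% and 1.66% in the other. The split used genes of the class rule and is a range, so no test was made.

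Cox6b2, the form of subunit 6b known from testis, was present outside it. It was counted at 182 and 133 CPM in melanocytes, at 88.5 and 92.2 in the RPE class, at 82.2 and 55.8 in fibroblasts and at 19.3 and 20.9 in mural barcodes. Macrophages held 10.5 and 12.6, and the endothelial class 1.37 and 2.27, the lowest. Log2 fold changes were 2.80 ± 0.15 in melanocytes (adjusted p = 1.97e-08), 1.51 ± 0.16 in fibroblasts (adjusted p = 6.59e-06) and -4.81 ± 0.29 in the endothelial class (adjusted p = 4.06e-08, all edgeR). The RPE class and melanocytes did not pass the test of their difference, 0.47 ± 0.20 (adjusted p = 0.0627, edgeR). As a fraction of Cox6b1 and Cox6b2, however, fibroblasts were first with 21.2% and 18.2%, followed by melanocytes with 16.6% and 15.4% and the RPE class with 11.1% and 11.8%. In melanocyte barcodes without UMIs of the 4 RPE genes the level was 180 and 131 CPM.

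Cox7a1, the heart and muscle form of subunit 7a, stayed at 0.613% to 2.92% of Cox7a1 and Cox7a2. It was highest in the RPE class, at 18.2 and 16.6 CPM, and next in mural barcodes, at 14.3 and 10.5, with a step of 0.78 ± 0.21 on the log2 scale between them (adjusted p = 0.00466, edgeR). The muscle form Cox6a2 was at most 1.00% of its pair in every library and class.

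**Figure D4:**
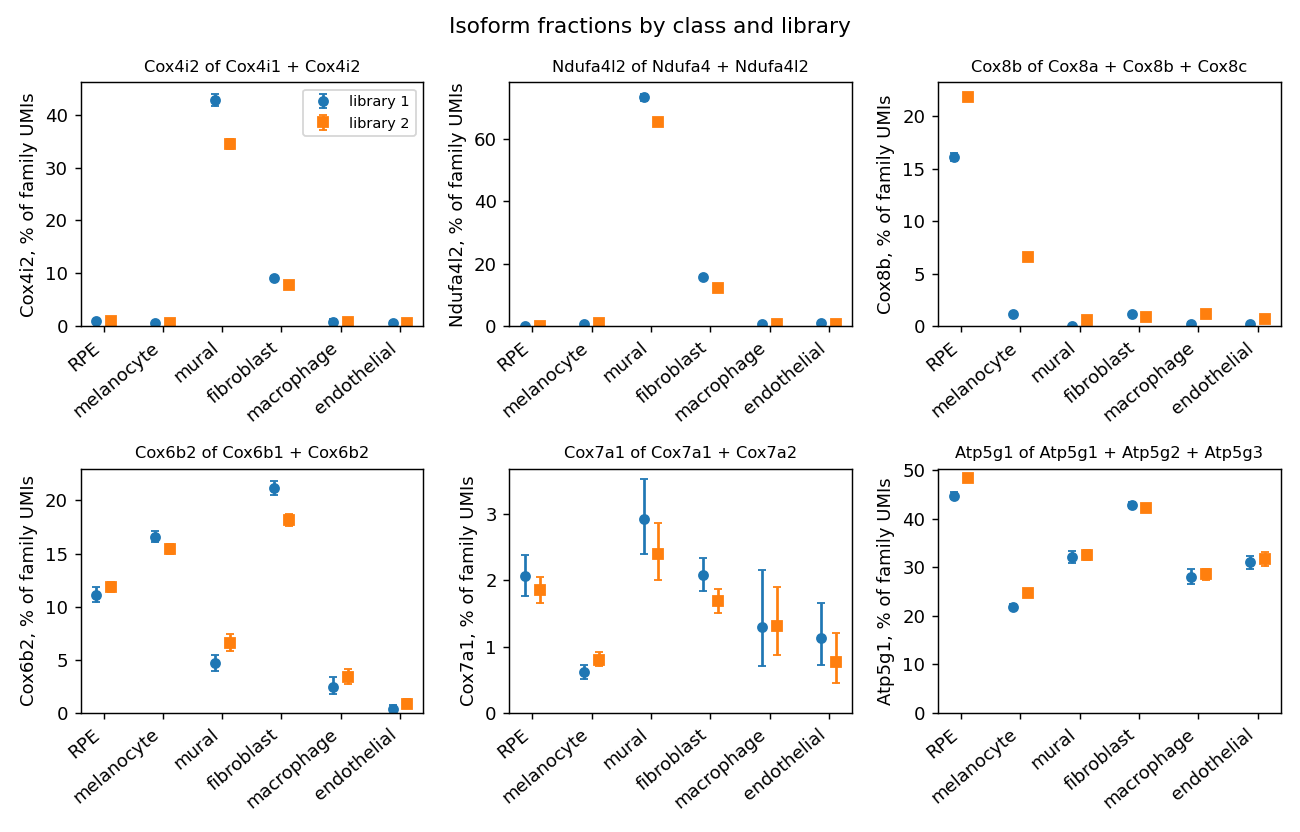
Fraction of family UMIs (%, y axes, each panel with its own scale from 0) for 6 isoform genes by class (x axes) and library (colour and shape), with 95% exact binomial intervals of counting error. Cox4i2 and Ndufa4l2 are high in mural barcodes (42.8% and 34.5%, and 73.3% and 65.5%), Cox8b in the RPE class (16.1% and 21.8%) and Cox6b2 in fibroblasts (21.2% and 18.2%).

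The 13 mitochondrially encoded subunits followed a different order of classes. They took 4.79% and 4.76% of UMIs in the RPE class, 3.31% and 4.13% in mural barcodes, 2.96% and 3.76% in melanocytes and 2.92% and 3.20% in fibroblasts. The endothelial class had 1.40% and 1.91% and macrophages 1.57% and 2.00%. Relative to the nuclear-encoded members this was 1.03 and 1.05 times as much in the RPE class, 0.763 and 1.15 in melanocytes, 1.74 and 2.26 in fibroblasts and 1.53 and 2.37 in mural barcodes. The ratio was 0.886 and 1.52 in the endothelial class and 0.999 and 1.48 in macrophages. In 5 of the classes the mitochondrial share was lower and the nuclear share higher in the first library. The mitochondrial share of UMIs also varies with the state of a cell at capture, and its part in these ratios was not tested.

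**Figure D5:**
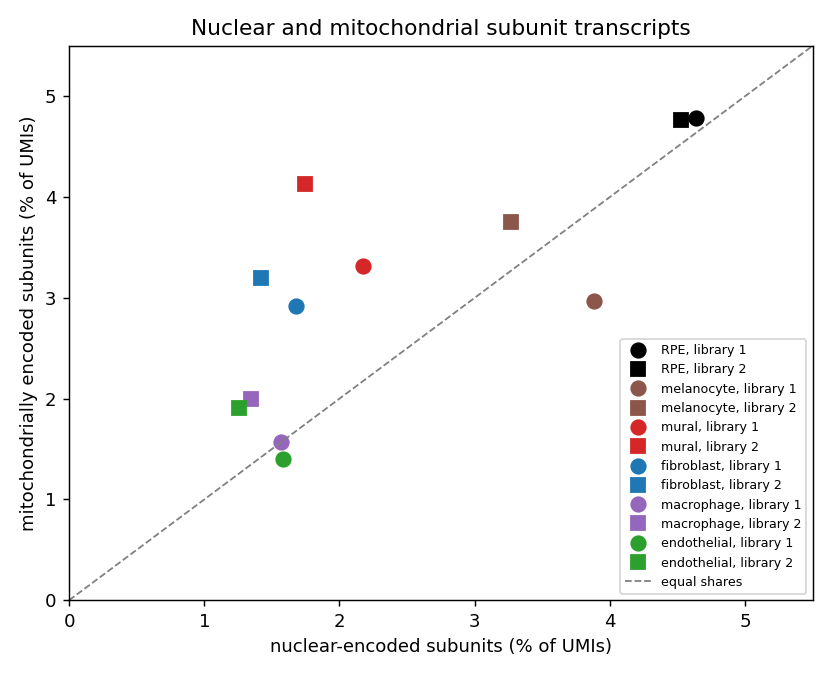
Share of UMIs from the 13 mitochondrially encoded subunits (%, y axis) against that from the 80 nuclear-encoded members (%, x axis), 1 point per class (colour) and library (shape), with a dashed line where both are equal. The RPE points lie close to the line at 4.79% and 4.76%, and the fibroblast and mural points lie above it.

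By gene, all 13 mitochondrially encoded subunits were higher in the RPE class (median log2 fold change 0.89), against 37.8% of all genes, and 12 were lower in the endothelial class, against 31.3%. In melanocytes 3 were higher, against 29.1%, a share near the background. In mural barcodes 8 were higher, against 25.5%, where 50 of the nuclear-encoded members were lower. The largest RPE change was that of mt-Nd5, a proton-pumping subunit of complex I, at 1332 and 1277 CPM with a log2 fold change of 1.88 ± 0.12 (adjusted p = 2.11e-08, edgeR).

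Other genes of mitochondrial metabolism were taken from lists and read against the same background of 37.8% higher and 36% lower in the RPE class and 29.1% higher and 24.6% lower in melanocytes. Of 6 genes of complex II and the electron carriers 5 were higher in the RPE class (median 0.94), led by Sdhd, a membrane anchor of succinate dehydrogenase, with 1.77 ± 0.12. Of 27 assembly factors 23 were higher (median 1.16), led by Atpaf1, a chaperone of the ATP synthase, with 2.15 ± 0.18, and Sco2 and Ndufaf4 were lower. Of 15 genes of the tricarboxylic acid cycle 13 were higher (median 0.88) and Dlst lower. Of 15 genes of fatty acid oxidation 14 were higher (median 1.63), led by Cpt2, a carnitine palmitoyltransferase, with 3.22 ± 0.15, and the muscle form Cpt1b was lower. In melanocytes 10 of 15 tricarboxylic acid cycle genes and 8 of 15 fatty acid oxidation genes were higher and none of either list lower.

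Glycolysis genes were higher too, 13 of 16 in the RPE class (median 0.61), against 37.8% of all genes, and 12 of 16 in melanocytes, against 29.1%. In the RPE class the lower ones were Hk2, Ldha and Hk1. Ldhb, the lactate dehydrogenase form of oxidative tissues, was at 910 and 873 CPM there, with a log2 fold change of 3.83 ± 0.09 (adjusted p = 3.08e-12, edgeR). Ldha, the form of glycolytic tissues, was at 127 and 128, with -1.53 ± 0.12 (adjusted p = 1.19e-07, edgeR).

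Of 15 tested regulators of mitochondrial genes 4 were higher and 6 lower in the RPE class, shares near the background of 37.8% and 36%. Ppargc1a, the coactivator known for driving mitochondrial biogenesis, was at 99.8 and 74.2 CPM in the RPE class and at 223 and 208 in melanocytes. It was at 0.851 to 8.60 in the other 4 classes. Ppargc1a was thus higher in melanocytes than in the RPE class, the reverse of the members' share, and a link between them was not tested. Its log2 fold change was 3.90 ± 0.12 in the RPE class (adjusted p = 1.60e-11, edgeR) and 5.11 ± 0.11 in melanocytes (adjusted p = 1.98e-12, edgeR). Nrf1 was lower in the RPE class.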

How the data were processed

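Raw UMI counts by gene and droplet came from the authors, who used Cell Ranger (2.1.1 per the submitters' processing notes, 4 per the file headers) with mm10, and were analysed as deposited. No source used here names the annotation. At the labels' 3′ chemistry, counts do not scale with transcript length. Barcodes were filtered and classed as described with the results, with no doublet removal and with free RNA left in. Barcodes with at most 100 UMIs held 4.90% and 4.11% of all UMIs. Within the classes, free RNA estimated from rod photoreceptor transcripts was uneven. It was 0.355% and 2.16% in the RPE class, 3.23% and 13.2% in mural barcodes and 13.6% and 6.75% in macrophages. CPM levels use all UMIs of a class.

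UMIs were summed per library and class (12 sums) and fitted with edgeR 4.0.16 (limma 3.58.1, R 4.3.3), with a library block, TMM scaling, the filterByExpr filter and robust dispersions, which leaves 5 residual degrees of freedom. The block pairs classes from the same library and so the same animals. Fits were tested on simulated data with few changed genes in 1 class and no library effect. These settings differ from the real data, so that test says little about the calls made here. SE is the error of the log2 fold change. Shares and fractions were not tested. Named were isoform genes and, per class, called members among the 3 with the largest change each way. Among the latter, Ndufb7 (log2 fold change -1.20 ± 0.12 in fibroblasts) and Ndufb2 (-1.11 ± 0.13 in macrophages) are given only here. Also named were the member with most UMIs per complex, Cox7a2l, and leading genes of the pathway lists. Others, such as Ndufa11, Atp5b and Atp5d, were named after their values were seen. Members and lists were chosen with earlier results of these data known. Alternatives used DESeq2 1.42.0 and Scrublet in scanpy 1.11.5. P-values and SE rest on how class differences varied between the 2 pools, with spread information shared over genes. The overall difference between the pools is taken up by the library block and is not part of that spread. The values of 1 tested member, though counted, are not reported here.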

Additional observations from a re-analysis of the deposited data

How the results depend on the processing

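The order RPE, melanocyte, mural, then the rest of the members' shares held under every alternative that gave all 6 classes. The RPE share was 4.66% with Scrublet doublets removed, 4.81% without mitochondrial UMIs in the total and 4.85% without ribosomal protein UMIs. The latter total gave 4.06% in melanocytes, 1.75% in fibroblasts and 1.76% in macrophages. Leaving out 1 library gave 4.53% to 4.64% in the RPE class, 3.27% to 3.88% in melanocytes, 1.74% to 2.17% in mural barcodes, 1.42% to 1.68% in fibroblasts, 1.35% to 1.57% in macrophages and 1.26% to 1.58% in the endothelial class. It gave 34.5% to 42.8% for the mural Cox4i2 fraction, 65.5% to 73.3% for Ndufa4l2, 16.1% to 21.8% for Cox8b in the RPE class and 15.4% to 16.6% for Cox6b2 in melanocytes. The Cox8b fraction was 14.5% in pure RPE barcodes, and the mural Ndufa4l2 fraction 76.0% with free RNA subtracted. With 1 library no residual degrees of freedom remain, so no counts were made.

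Counts of members changed by over 1.5 times as follows. Without the replicate block 25 were lower in fibroblasts, 45 higher and 1 lower in melanocytes, 11 lower in mural barcodes, and 2 higher and 12 lower in macrophages. With no scaling 1 was lower in melanocytes, 2 in the RPE class and 67 in macrophages, and 3 were higher in the endothelial class, 8 in mural barcodes and 1 in macrophages. That setting moved the median log2 fold change of all genes in macrophages from -0.17 to -0.59 and that of members from -0.31 to -0.73, and in melanocytes from 0.01 to 0.22 and from 0.66 to 0.87. With free RNA subtracted 1 was lower in melanocytes and 2 higher in macrophages. RLE size factors and the DESeq2 Wald test each gave 1 higher in the endothelial class, and no filter gave 3 higher in macrophages. A log2 limit of 1 left 4 lower in fibroblasts, 8 higher and 1 lower in melanocytes, 31 lower in the endothelial class, 2 higher and 6 lower in mural barcodes, and 0 higher and 4 lower in macrophages. Ndufa6 in macrophages reversed to -0.044 with no scaling. The cause of these shifts was not tested.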
